A study of Mus musculus with 12 samples.

Results

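The genes described here encode residents of PML nuclear bodies and antiviral members of the tripartite motif (TRIM) family: Pml, Sp100, Daxx, Isg20, Trim14, Trim21, Trim25, Trim30 and Trim34. They were taken by symbol, 9 of the 24505 gene symbols on the array, and 2 of the symbols in the file have newer forms in RefSeq, Trim30a for Trim30 and Trim34a for Trim34. The array carried 22 probes for them among its 45281, and 14 of the 22 passed a filter on dim probes (detection p under 0.05 on at least 3 of 12 arrays), which kept 18867 probes in all. Those 14 covered 8 genes. Both probes of Trim14 were above background on 0 of 12 arrays, so Trim14, an adaptor in antiviral signalling at mitochondria, was not tested; their log2 levels lay between 4.33 and 4.77 on every array.

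RNA was hybridised to 12 Illumina Mouse WG6V2 BeadChip arrays, which read 1 bead intensity per probe. The cells were Lineage-negative, Kit-positive and CD45.2-positive, a sort that enriches haematopoietic stem and progenitor cells, and came from the femur and tibia of chimeric mice (strain given as C57BL/6) 12 to 16 weeks after transplantation of fetal liver cells of embryonic day 13.5. The 4 groups of 3 arrays were caspase-9 knockout (Casp9 KO), its wild type (WT experiment 1), Bak and Bax double knockout (Bak/Bax DKO) and its wild type (WT experiment 2). All 4 groups, wild types included, are therefore transplanted marrow, and a host can keep blood cells of its own. The labels give neither the age of the recipients nor a strain for them apart from that of the sample, and do not say that the 3 arrays of a group came from different animals; the p-values then reflect only how these samples vary, which may be technical. Per the labels, each knockout shared a beadchip with its own wild type.

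PML, itself a TRIM protein, builds the shell of the nuclear bodies through SUMO modification, and Sp100 and the histone chaperone adaptor Daxx gather in it. Interferon induces PML and Sp100, and the bodies restrict viral genomes in the nucleus. Most TRIM proteins are ubiquitin ligases, several of them made in response to interferon, and act on viral components or on the signalling that follows their detection. Caspase-9 starts the caspase cascade once mitochondria release cytochrome c, a release that needs Bak or Bax, so both genotypes block the same death pathway at different steps.

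The targeted genes followed the labels. The Casp9 probe ILMN_1217061 read 5.37, 5.24 and 5.48 in Casp9 KO against 8.02, 8.99 and 8.83 in WT experiment 1 (log2 level, limma adjusted p = 3.0e-05), and a second Casp9 probe was above background on 0 of these 6 arrays. Bak1 was above background on 0 of 3 Bak/Bax DKO arrays and 3 of 3 WT experiment 2 arrays, and Bax fell by 1.82 on the log2 scale (adjusted p = 0.00038). The labels do not place the probes inside or outside the deleted parts. Of the progenitor markers, Kit, Cd34, Ptprc, Gata2, Myb and Meis1 were above background on 12 arrays and Flt3 was not among the tested probes. The T, NK and B cell markers Cd3e, Ncr1, Ms4a1 and Pax5 were above background on 0 arrays, while Cd79b, Vpreb1, Igll1 and Lck were above it on 12 and Cd79a on 9. The share of probes above background ranged over the arrays between 35.7% and 39.7%. The second Bak/Bax DKO sample (replicate 2) differed from all others: across the tested probes it correlated with the other arrays at 0.716 to 0.740, and its mean intensity was 234.5 against 321.5 to 522.0 elsewhere. The calls of the 14 probes in Bak/Bax DKO are therefore also given without it.

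In Casp9 KO progenitors, 7 of the 14 probes rose and 0 fell. They belonged to Trim30, Trim34, Sp100 and Trim21, with rises of 1.76-fold to 3.95-fold. Over all 18867 probes the same test called 1.14%, 0.88% as higher and 0.265% as lower. All 14 probes had higher means in Casp9 KO than in WT experiment 1, as did 45.0% of all probes tested. Their median log2 change was 0.88 beside -0.03 over all probes tested. The 3 knockout arrays lay wholly above the 3 wild-type arrays for 10 of the 14, and 10.4% of all probes did so (13.4% lay wholly below).

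In Bak/Bax DKO progenitors, 3 of the 14 rose and 0 fell: the single Trim30 probe and both Trim34 probes, by 2.03-fold to 2.35-fold. Of all probes, 1.82% were called, 1.43% as higher and 0.392% as lower. Again all 14 means were higher than in the wild type, as were those of 60.6% of all probes tested. The median of the 14 was 0.46 beside 0.08 over all probes. The arrays did not overlap for 8 of the 14, higher in the knockout each time, and 11.8% of all probes had this order (5.54% the opposite one). Without replicate 2 these were 8 of the 14, against 15% of all probes (14.4% the opposite one). A test of the difference between the 2 knockout effects called 1 of the 14, a probe of Sp100, against 1.49% of all probes (0.631% higher and 0.859% lower in Casp9 KO).

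Markers of other cell types differed between groups as well, and in bulk RNA fewer cells of a type and less RNA per cell cannot be told apart. Of the monocyte, macrophage and dendritic markers, 8 of 8 tested were higher in Casp9 KO than in WT experiment 1, 1 of them called (Mpeg1), and their summed linear level was 3277 to 4393 in Casp9 KO against 1834 to 2204 in WT experiment 1. Itgam and Itgax were above background on 0 arrays. The same sum was 2037 to 2706 in Bak/Bax DKO (2037 to 2042 without replicate 2) against 2856 to 3470 in WT experiment 2. Of these 8 markers, however, 5 had higher means in Bak/Bax DKO. With all 12 arrays 0 of them were called as higher and 1 as lower. Without replicate 2 the only call was a fall of Ly86. Mast and basophil markers summed to 13022 to 15903 in Casp9 KO against 9612 to 11827 in WT experiment 1, with 2 of 4 called as higher. Erythroid markers summed to 10990 to 15663 in Casp9 KO against 17008 to 20464 in WT experiment 1, with 1 of 8 called as lower. Megakaryocyte markers summed to 1899 to 2114 in Casp9 KO against 2571 to 2785 in WT experiment 1, with 0 of 5 called. In Bak/Bax DKO the megakaryocyte sum was 2401 to 4541 (3710 to 4541 without replicate 2) against 1566 to 2656 in WT experiment 2. There 1 of the 5 was called as higher (2 without replicate 2). The mast and basophil sum was 6637 to 10168 in Bak/Bax DKO (8946 to 10168 without replicate 2) against 12089 to 12470 in WT experiment 2. Yet 3 of these 4 markers had higher means in Bak/Bax DKO, with 1 called as higher and 0 as lower. Without replicate 2, 1 was called as higher and 1 as lower (Prg2). Stem and progenitor markers summed to 11960 to 16100 in Bak/Bax DKO (11960 to 13695 without replicate 2) against 7328 to 9111 in WT experiment 2, with 2 of 6 called as higher (1 without it). The neutrophil sum was 23070 in Bak/Bax DKO replicate 2 and 35119 to 42514 in the other Bak/Bax DKO arrays, against 53841 to 55576 in WT experiment 2, with 0 of 8 called (4 as lower without replicate 2). Of 6 tested B lymphoid markers 3 fell in Bak/Bax DKO, with or without replicate 2: Cd79a, Vpreb1 and Igll1, the last 2 of them surrogate light chain genes. Their list summed to 613.4 to 925.7 in Bak/Bax DKO (613.4 to 659.4 without replicate 2) against 1053 to 1508 in WT experiment 2, and in the other pair 0 of 6 were called (1035 to 1147 in Casp9 KO against 913.3 to 1147 in WT experiment 1). The part of these shifts in the levels of Trim30, Trim34, Sp100 and Trim21 was not tested.

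**Figure D1:**
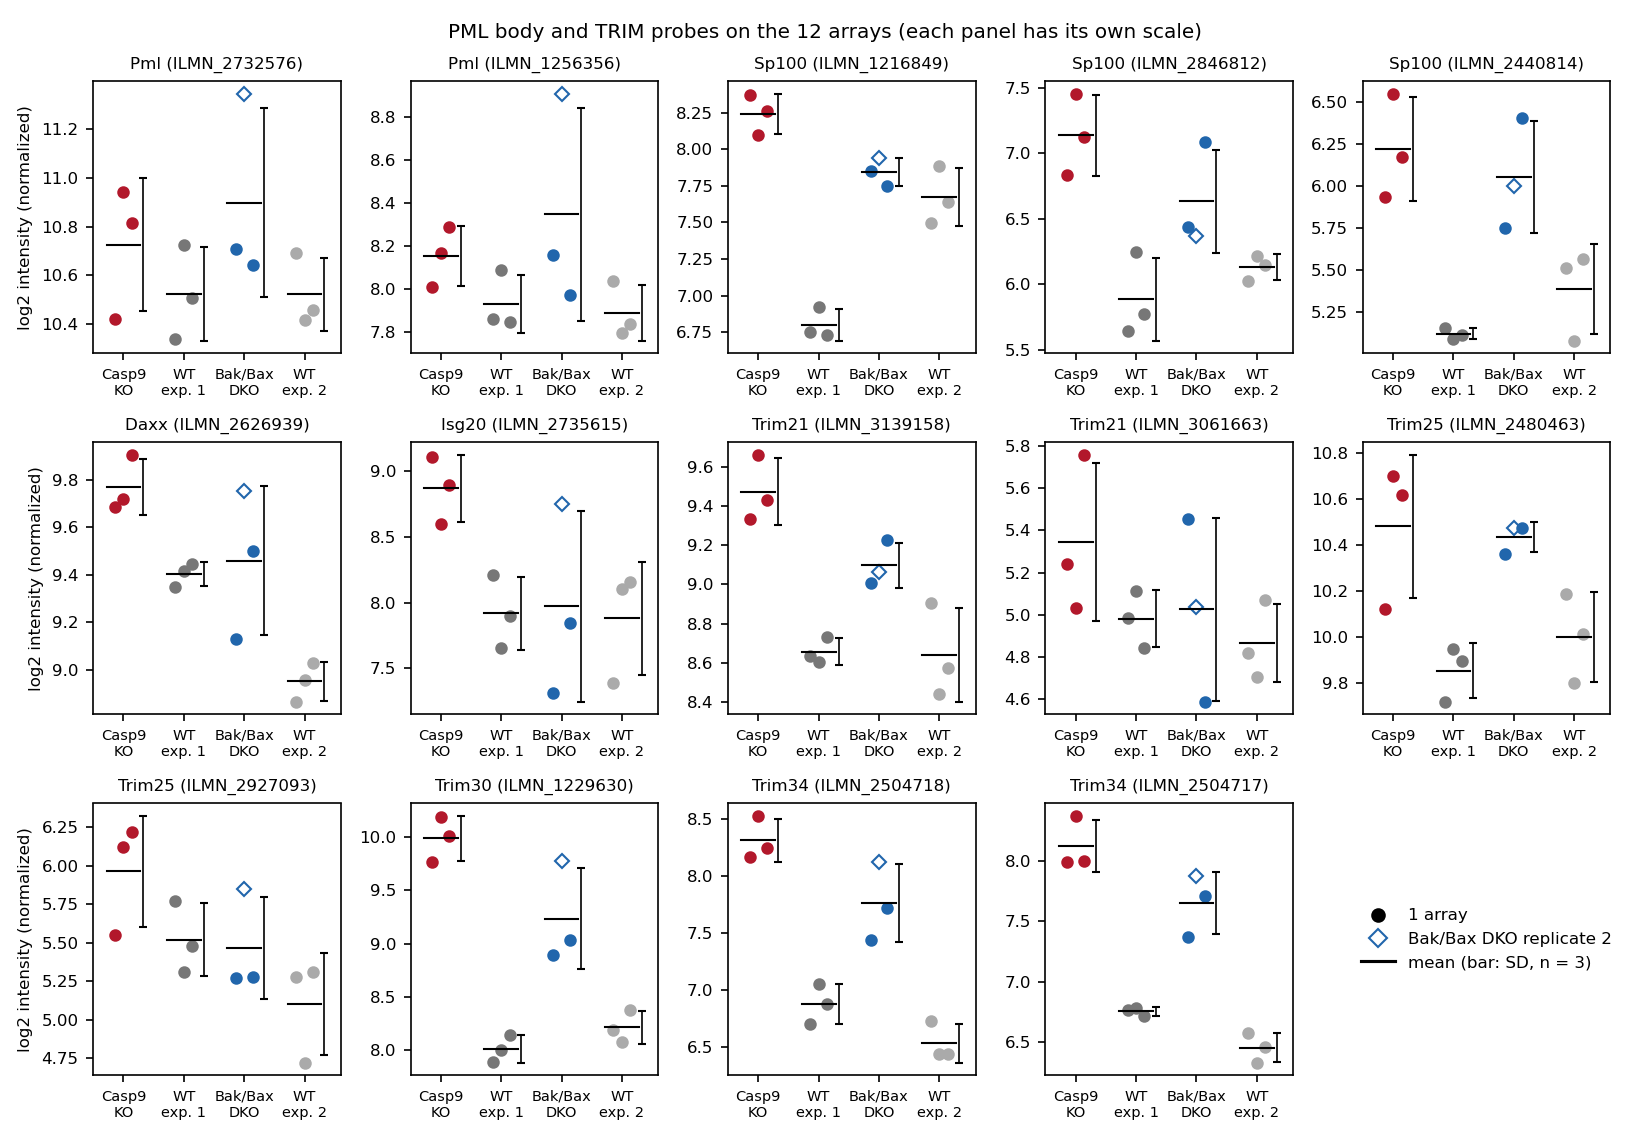
Normalised log2 level (vertical axis) of each of the 14 tested probes on each array, with groups from left to right Casp9 KO, WT experiment 1, Bak/Bax DKO and WT experiment 2. Points are arrays, horizontal lines are group means, and the bars beside them show the SD of the 3 arrays. The 3 Casp9 KO arrays lie above the 3 WT experiment 1 arrays for 10 of the 14 probes.

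Trim30 showed the largest change of the 14 probes in Casp9 KO. The mouse protein is a ubiquitin ligase known to damp NF-kB signalling in macrophages by driving loss of the TAB2 and TAB3 adaptors. Its probe ILMN_1229630 (chromosome 7, 111557825 to 111557874, minus strand; no source used here names the build of the probe positions) read 9.77, 10.19 and 10.01 in the 3 Casp9 KO samples, against 7.88, 8.0 and 8.14 in WT experiment 1. It read 8.89, 9.78 and 9.04 in Bak/Bax DKO, against 8.19, 8.07 and 8.38 in WT experiment 2. The 2 groups of each pair did not overlap. Before normalisation the bead intensities were 1005, 1749 and 1069 in Casp9 KO and 330.2, 358.4 and 379.5 in WT experiment 1. The rise was 3.95-fold in Casp9 KO (95% confidence interval 2.82 to 5.54, limma adjusted p = 0.000894) and 2.03-fold in Bak/Bax DKO (1.45 to 2.85, adjusted p = 0.0455). Part of the double-knockout mean came from replicate 2: without that array the log2 change was 0.75 in place of 1.03, still called (adjusted p = 0.023). The call in Bak/Bax DKO was lost when any 1 of 10 of the 12 arrays was left out. The 2 effects differed by 0.96 on the log2 scale (SE 0.31), which missed the threshold (adjusted p = 0.165) and passed it without replicate 2 (1.23, adjusted p = 0.006).

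Trim34, a close relative of the retroviral restriction factor Trim5 within the same cluster, was with Trim30 the gene called in both knockouts. Its 2 tested probes, ILMN_2504718 and ILMN_2504717, start 2 bases apart on chromosome 7 (111484980 and 111484978, plus strand) and share 48 of their bases, so they are close to 1 measurement. The first read 8.17, 8.53 and 8.25 in Casp9 KO against 6.70, 7.05 and 6.88 in WT experiment 1. In the other pair it read 7.44, 8.12 and 7.72 in Bak/Bax DKO against 6.73, 6.43 and 6.43 in WT experiment 2. All 6 knockout arrays stood above all 6 wild-type arrays for both probes. The rise of ILMN_2504718 was 2.71-fold in Casp9 KO (2.02 to 3.64, adjusted p = 0.0032) and 2.35-fold in Bak/Bax DKO (1.75 to 3.15, adjusted p = 0.00917). The second probe, ILMN_2504717, gave 7.99, 8.37 and 8.0 in Casp9 KO against 6.77, 6.78 and 6.71 in WT experiment 1, and 7.37, 7.88 and 7.71 in Bak/Bax DKO against 6.57, 6.33 and 6.46 in WT experiment 2. Its folds were 2.58 (adjusted p = 0.0014) and 2.30 (adjusted p = 0.00449). Without Bak/Bax DKO replicate 2 the log2 changes in the double knockout were 1.05 and 1.09, both called. The difference between the knockout effects was 0.21 for ILMN_2504718, with a 95% interval of -0.39 to 0.81, so a gap of either sign of that size could be present. The remaining Trim34 probe, which the files place at 111408638 to 111408687 on chromosome 7, was above background on 0 arrays.

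Trim30 and Trim34 lie in 1 run of related TRIM genes. In the order of RefSeq genes, Trim6, Trim34a, Trim5, Trim12a, Trim34b, Trim12c, Trim30b, Trim30c, Trim30a and Trim30d follow one another on chromosome 7, with 1 predicted gene among them. Transcripts of near-identical neighbours can bind the same probe, so which copy gave the Trim30 and Trim34 signal is uncertain. Of 3 such neighbours with tested probes, Trim30d rose in Casp9 KO: 5.62, 5.56 and 5.35 against 4.43, 4.55 and 4.60 in WT experiment 1, where it was above background on 0 of 3 arrays. Against the dimmest level above background on those arrays it was at least 1.45-fold higher in Casp9 KO (adjusted p = 0.0345 in the fit of the measured levels). Its change in Bak/Bax DKO was 0.41 (adjusted p = 0.347). Trim12a had log2 changes of 0.47 in Casp9 KO and 0.36 in Bak/Bax DKO, with 0 calls, and Trim30b, above background on 4 of the 12 arrays, was also not called.

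Interferon acts on many genes through the interferon-stimulated response element, a short promoter sequence. The promoters of the 9 genes, as far as the table held them, were searched for its letters, GAAA and GAAA with any 2 bases between them, on either strand, in windows of 250 bases before to 50 after each annotated start (RefSeq, GRCm38.p6). Of the 9 genes 8 were matched to the promoter table, with 14 windows. The letters were present in 4 of the 14 windows and 3 of the 8 genes, against 3.44% of 32851 windows and 3.99% of 27025 genes over the whole table. The 4 windows are shown because they belong to the 3 TRIM genes with a called probe, with the matched letters in capitals; a match on the opposite strand reads TTTC, any 2 bases, TTTC. The 2 starts of Trim30a lie in windows of related sequence with the same element, and Trim21 has 2 overlapping matches.
Trim34a, chr7:104244207-104244506, plus strand: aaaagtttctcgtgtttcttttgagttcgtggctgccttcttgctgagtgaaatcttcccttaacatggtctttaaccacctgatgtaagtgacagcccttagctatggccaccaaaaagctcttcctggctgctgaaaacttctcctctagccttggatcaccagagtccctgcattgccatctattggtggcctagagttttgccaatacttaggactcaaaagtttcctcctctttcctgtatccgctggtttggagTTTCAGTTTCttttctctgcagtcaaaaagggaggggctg
Trim30a, second start, chr7:104465144-104465443, minus strand: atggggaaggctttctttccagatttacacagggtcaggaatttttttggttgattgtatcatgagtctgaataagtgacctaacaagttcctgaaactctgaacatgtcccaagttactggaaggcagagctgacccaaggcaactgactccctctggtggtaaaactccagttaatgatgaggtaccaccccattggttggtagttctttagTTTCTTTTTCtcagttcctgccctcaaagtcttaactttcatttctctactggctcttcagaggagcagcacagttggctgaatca
Trim30a, first start, chr7:104446076-104446375, minus strand: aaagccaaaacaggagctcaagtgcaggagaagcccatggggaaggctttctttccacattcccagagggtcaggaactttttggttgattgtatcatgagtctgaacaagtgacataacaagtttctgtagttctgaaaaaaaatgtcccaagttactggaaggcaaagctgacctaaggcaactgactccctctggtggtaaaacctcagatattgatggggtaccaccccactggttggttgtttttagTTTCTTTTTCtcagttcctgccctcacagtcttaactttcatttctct
Trim21, chr7:102565433-102565732, minus strand: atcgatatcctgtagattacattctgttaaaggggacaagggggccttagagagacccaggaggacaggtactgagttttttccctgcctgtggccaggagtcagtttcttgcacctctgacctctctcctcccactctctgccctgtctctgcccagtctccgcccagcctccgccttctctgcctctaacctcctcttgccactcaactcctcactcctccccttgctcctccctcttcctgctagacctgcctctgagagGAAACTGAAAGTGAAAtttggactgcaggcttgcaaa
The Trim34a match spans bases 11 to 20 after the start. In Trim30a it lies at positions -36 to -27 from the second start and 3 to 12 after the first. The Trim21 matches span bases 14 to 23 and 20 to 29 after the start. The gamma-activated site, TTC and GAA with any 3 bases between them, was found in 1 of the 14 windows, in Isg20 at positions -73 to -65 from 1 of its starts, against 8.3% of all windows. A match is a string of letters and not a measured binding site, and nothing is said of a factor where the letters are missing.

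**Figure D2:**
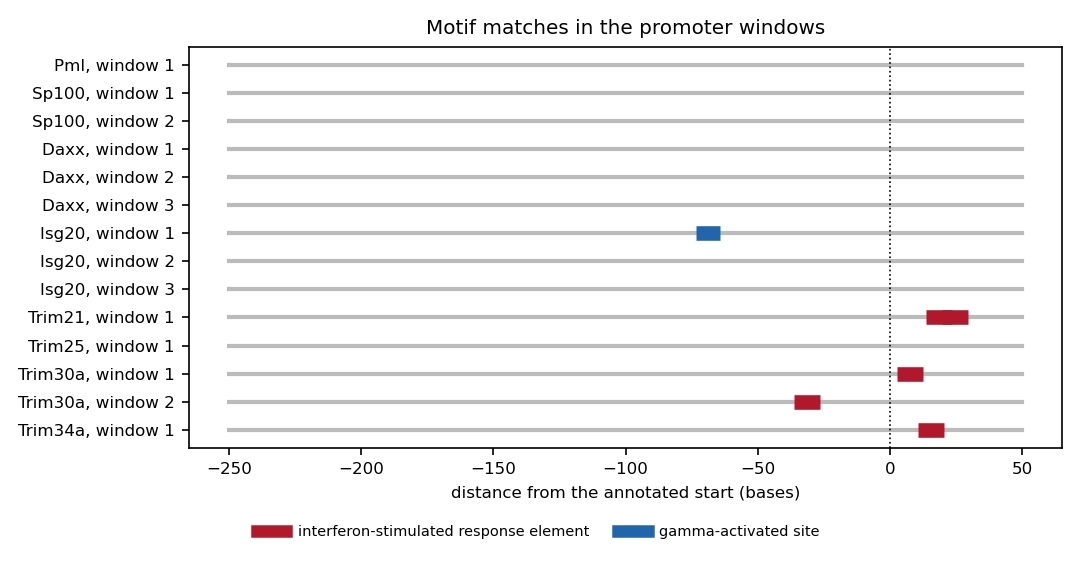
Matches to the interferon-stimulated response element (red) and the gamma-activated site (blue) in the 14 promoter windows of 8 genes, plotted by distance from the annotated start in bases (horizontal axis). Red marks lie in Trim21, both Trim30a windows and Trim34a, and the 1 blue mark lies in Isg20.

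Trim21 and Trim25 act on either side of virus sensing. Trim21 is a cytosolic Fc receptor and ubiquitin ligase that marks antibody-coated viruses for degradation, and Trim25 adds ubiquitin chains in the activation of the RNA sensor RIG-I. The Trim21 probe ILMN_3139158 (chromosome 7, 109706780 to 109706829) read 9.33, 9.66 and 9.43 in Casp9 KO against 8.63, 8.60 and 8.73 in WT experiment 1. It read 9.01, 9.06 and 9.22 in Bak/Bax DKO against 8.90, 8.44 and 8.58 in WT experiment 2. It thus rose 1.76-fold in Casp9 KO (1.40 to 2.22, adjusted p = 0.0282), while the value in Bak/Bax DKO, 1.37-fold, did not pass (adjusted p = 0.182, and 0.166 without replicate 2) although its arrays did not overlap. The Casp9 KO call was lost when any 1 of 6 of the 12 arrays was left out. The second tested Trim21 probe, ILMN_3061663, was above background on 7 of 12 arrays and had log2 changes of 0.36 and 0.16, with 0 calls.

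Neither tested Trim25 probe was called. ILMN_2480463 (chromosome 11, 88881442 to 88881491) read 10.13, 10.70 and 10.62 in Casp9 KO against 9.72, 9.95 and 9.90 in WT experiment 1. The Bak/Bax DKO arrays read 10.36, 10.47 and 10.48, against 10.19, 9.80 and 10.01 in WT experiment 2. The knockout arrays were above the wild type in both pairs, with log2 changes of 0.63 (SE 0.17, adjusted p = 0.143) and 0.44 (adjusted p = 0.259; 0.42 without replicate 2, adjusted p = 0.284). Without Casp9 KO replicate 1, its lowest knockout array, it was called in Casp9 KO. The deposited annotation marks ILMN_2480463 with a filter flag, which was not used here. The dimmer probe ILMN_2927093 had log2 changes of 0.44 in Casp9 KO and 0.37 in Bak/Bax DKO, with overlapping arrays in both. The target of Trim25, RIG-I (Ddx58 in the file), rose in both knockouts: by 1.54 on the log2 scale in Casp9 KO (adjusted p = 0.0039) and by 1.02 in Bak/Bax DKO (adjusted p = 0.0396; 1.00 without replicate 2, adjusted p = 0.0329; adjusted p = 0.182 with the 6 arrays of experiment 2 alone). It was the only one of the 9 tested partners of the antiviral TRIM proteins to be called, beside 1.14% and 1.82% of all probes. The list also held Mavs, Tbk1 and Ikbke of the same sensing pathway and the Trim30 targets Tab2 and Tab3.

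**Figure D3:**
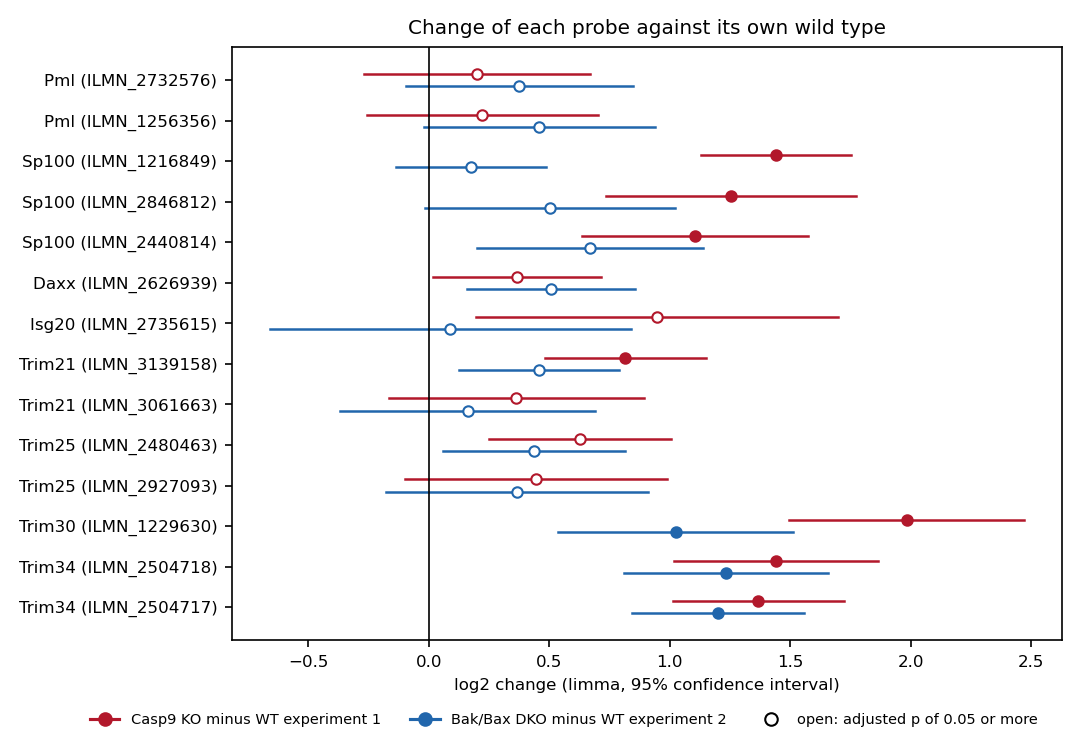
Log2 change of each tested probe (horizontal axis) in Casp9 KO (red) and in Bak/Bax DKO (blue), each against its own wild type, with 95% confidence intervals from limma; filled points have an adjusted p under 0.05. Filled red points are those of Sp100, Trim21, Trim30 and Trim34, and filled blue points those of Trim30 and Trim34.

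Sp100 was the nuclear body gene that rose in Casp9 KO, on all 3 tested probes. Named for its speckled nuclear pattern, it binds heterochromatin protein HP1 and is a long-known autoantigen. ILMN_1216849 (chromosome 1, 87578841 to 87578890) read 8.37, 8.10 and 8.26 in Casp9 KO against 6.75, 6.92 and 6.73 in WT experiment 1. Its level in experiment 2 was 7.85, 7.94 and 7.75 in Bak/Bax DKO against 7.49, 7.88 and 7.64 in WT experiment 2, where the groups overlapped. Its 3 Casp9 KO arrays were the highest of the 12. The second probe, ILMN_2846812 (87605876 to 87605925), read 6.83, 7.45 and 7.13 in Casp9 KO against 5.64, 6.24 and 5.77 in WT experiment 1. The remaining tested probe, ILMN_2440814 (87604572 to 87604621), read 5.94, 6.55 and 6.18 in Casp9 KO against 5.15, 5.09 and 5.11 in WT experiment 1. For both, each Casp9 KO array was above each WT experiment 1 array. The rises in Casp9 KO were 2.72-fold for ILMN_1216849 (2.19 to 3.37, adjusted p = 0.00035), 2.38-fold for ILMN_2846812 (adjusted p = 0.0297) and 2.15-fold for ILMN_2440814 (adjusted p = 0.0335). The calls of the last 2 were each lost when any 1 of 7 of the 12 arrays was left out. The deposited annotation marks ILMN_2846812 with a filter flag, which was not used here. It names no RefSeq transcript for ILMN_1216849, so the 3 probes are not equally well annotated.

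The Sp100 probes disagreed outside that comparison. ILMN_1216849 starts 25731 and 27035 bases from the other 2, which are 1304 bases apart, and the part of the gene that each probe covers was not analysed here. ILMN_2846812 read 6.44, 6.37 and 7.09 in Bak/Bax DKO against 6.02, 6.22 and 6.15 in WT experiment 2, and ILMN_2440814 read 5.75, 6.00 and 6.41 in Bak/Bax DKO against 5.51, 5.08 and 5.57 in WT experiment 2. The groups overlapped for ILMN_1216849 and for neither of these 2. The log2 changes of ILMN_1216849, ILMN_2846812 and ILMN_2440814 in Bak/Bax DKO were 0.17, 0.50 and 0.67, with 0 calls, and 0.13, 0.63 and 0.69 without replicate 2, again with 0 calls. The probe ILMN_1216849 was called in the difference between the knockout effects (1.27, SE 0.20, adjusted p = 0.0128; 1.31 without Bak/Bax DKO replicate 2, adjusted p = 0.00302), while the other 2 gave 0.75 (adjusted p = 0.31) and 0.44 (adjusted p = 0.528). It was also 0.87 higher in WT experiment 2 than in WT experiment 1 (adjusted p = 0.00414), where the other 2 differed by 0.24 and 0.27 without a call. That comparison of the wild types called 1 of the 14 probes and 8.35% of all probes (5.24% higher and 3.11% lower), and experiment and beadchip, which the labels give together, cannot be told apart in it. Between the wild types 1 of the 14 probes was wholly higher in WT experiment 2 and 3 wholly lower, against 18.9% and 22.1% of all probes. Sp100 has near-identical partial copies in the mouse genome, so the source of the signal is uncertain. Its promoter is shown beside those above because all 3 probes rose while it holds neither set of letters:
Sp100, chr1:85649738-85650037, plus strand: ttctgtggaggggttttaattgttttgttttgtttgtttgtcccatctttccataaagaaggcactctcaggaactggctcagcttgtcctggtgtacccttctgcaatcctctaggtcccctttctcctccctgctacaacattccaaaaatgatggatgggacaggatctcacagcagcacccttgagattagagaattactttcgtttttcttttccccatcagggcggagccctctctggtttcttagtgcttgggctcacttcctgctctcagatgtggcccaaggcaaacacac

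Neither tested probe of Pml was called. ILMN_2732576 (chromosome 9, 58066485 to 58066534) read 10.42, 10.94 and 10.82 in Casp9 KO against 10.34, 10.72 and 10.51 in WT experiment 1, and 10.71, 11.34 and 10.64 in Bak/Bax DKO against 10.69, 10.42 and 10.46 in WT experiment 2. The other, ILMN_1256356 (58065933 to 58065982), read 8.01, 8.17 and 8.29 in Casp9 KO against 7.86, 8.09 and 7.85 in WT experiment 1, and 8.16, 8.91 and 7.97 in Bak/Bax DKO against 8.04, 7.79 and 7.83 in WT experiment 2. The groups of both pairs overlapped for both probes. The log2 changes of the 2 tested probes were 0.20 and 0.22 in Casp9 KO (adjusted p = 0.932 and 0.912), with 95% intervals of -0.27 to 0.67 and -0.26 to 0.70. The double knockout gave 0.38 and 0.46 (adjusted p = 0.43 and 0.358), and 0.15 and 0.18 without replicate 2, which gave the highest level of both probes. The Casp9 KO intervals leave room for a moderate change. They end below the log2 changes measured for Sp100 in Casp9 KO, but the interval of Sp100 ILMN_2440814, which starts at 0.64, overlaps them. Pml and Sp100 were not compared by a test. The other 3 Pml probes did not pass the filter.

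Daxx, which with ATRX loads histone H3.3 at repeats and is also a partner of death receptors, was measured by ILMN_2626939 (chromosome 17, 34052296 to 34052345). It read 9.68, 9.72 and 9.90 in Casp9 KO against 9.35, 9.41 and 9.45 in WT experiment 1, and 9.13, 9.75 and 9.50 in Bak/Bax DKO against 8.87, 8.96 and 9.03 in WT experiment 2. Knockout arrays were above wild-type arrays in both pairs, by 0.37 (adjusted p = 0.461) and 0.51 (adjusted p = 0.162; 0.36 without replicate 2, adjusted p = 0.237) on the log2 scale, and neither passed the test. Isg20, an interferon-induced exonuclease that degrades RNA and is found in nuclear bodies, read 9.11, 8.60 and 8.89 in Casp9 KO against 8.21, 7.66 and 7.90 in WT experiment 1 (ILMN_2735615, chromosome 7, 86064972 to 86065021). The arrays did not overlap, yet the log2 change of 0.95 was not called (SE 0.34, adjusted p = 0.319). In Bak/Bax DKO it read 7.32, 8.75 and 7.85 against 7.39, 8.10 and 8.15 in WT experiment 2. Both values moved with Bak/Bax DKO replicate 2: without it Isg20 was called in Casp9 KO at the same log2 change (SE 0.23, adjusted p = 0.0372), and its change in Bak/Bax DKO was -0.30 in place of 0.09.

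The array that stood apart gave the highest of the 3 Bak/Bax DKO levels for 9 of the 14 probes, and for 61.3% of all probes. Without it the same number of probes, 3 of the 14, was called in Bak/Bax DKO, where 562 of all probes (2.98%) were called, and 8 of the 14 in Casp9 KO, where 802 (4.25%) were. The call of Trim30 and those of Trim34 in Bak/Bax DKO rested on an estimate of the spread shared by all 12 arrays. With the 6 arrays of experiment 2 alone 0 of the 14 were called, and 39 of all probes, or 0.207%. At an unadjusted p under 0.05 there were 7 of the 14. The share of all probes at that unadjusted threshold was not taken, so the 7 have no background beside them. With the 5 arrays left after removing replicate 2 both Trim34 probes were called (adjusted p = 0.024 and 0.0187), and Trim30 missed the threshold (adjusted p = 0.0667). With the 6 arrays of experiment 1 alone, 8 of the 14 rose in Casp9 KO, and 3.39% of all probes were called.

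**Figure D4:**
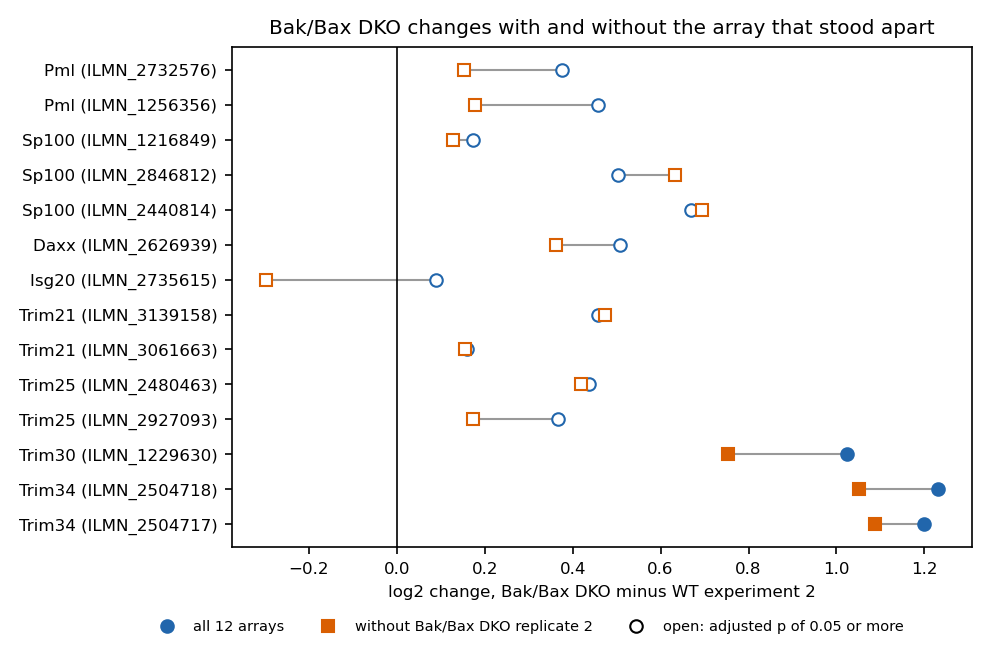
Log2 change of each tested probe in Bak/Bax DKO against WT experiment 2 (horizontal axis), with all 12 arrays (circles) and without Bak/Bax DKO replicate 2 (squares); filled marks have an adjusted p under 0.05. The Trim30 and Trim34 probes stay filled, the Trim30 square is at 0.75 and its circle at 1.03, and the Isg20 square lies below 0.

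Across the 4 groups, Casp9 KO had the highest mean for 12 of the 14 probes and Bak/Bax DKO for the 2 Pml probes. The shares of all probes with these highest groups were not taken. Neighbours in the order of the means often overlapped. For Trim30 the order was Casp9 KO, Bak/Bax DKO, WT experiment 2, WT experiment 1, with only the step between Bak/Bax DKO and WT experiment 2 free of overlap. For the Trim34 probe ILMN_2504718 the top 2 steps were free of overlap, with Casp9 KO above Bak/Bax DKO and Bak/Bax DKO above WT experiment 1. For both Pml probes every pair of neighbouring groups overlapped.

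With all 12 arrays no other gene of the nuclear bodies on the list was called. Of 45 partners of PML bodies 40 had a tested probe, and 0 were called in either knockout by limma. Over all probes the shares called were 1.14% in Casp9 KO and 1.82% in Bak/Bax DKO, so 0 of 40 lies near them. At an unadjusted p under 0.05 there were 2 in Casp9 KO and 6 in Bak/Bax DKO. The share of all probes under that threshold was not taken. Without Bak/Bax DKO replicate 2, 1 of the 40 was called in Casp9 KO, the probe filed as Sp110 (log2 change 0.62, adjusted p = 0.0341). In Bak/Bax DKO 0 of the 40 were then called. That fit called 4.25% and 2.98% of all probes. In the difference of the effects it called 2 of the 40, filed as Sp110 and Sp140 (adjusted p = 0.035 and 0.0202), beside 5.28% of all probes. The Entrez IDs of these 2 probes now carry the symbols Gm15753 and Gm2427. RefSeq keeps Sp110 and Sp140 as separate genes, so which genes these probes measured is uncertain. The probe counted as Sumo2 likewise now carries the symbol Gm12335. The list covers SUMO and its enzymes, the partners of Daxx in chromatin such as Atrx and Hira, and regulators stored in the bodies such as Usp7, Mdm2 and Trp53. Its median log2 change was -0.05 in Casp9 KO beside -0.03 over all probes, and 0.10 in Bak/Bax DKO beside 0.08. Changes ranged from -0.31 to 0.62 in Casp9 KO. In Bak/Bax DKO the lowest was that of Sae1, a subunit of the SUMO-activating enzyme singled out after its values were seen, at -2.75: its probe read 12.97, 4.25 and 12.78 in Bak/Bax DKO against 12.97, 12.69 and 12.58 in WT experiment 2, so replicate 2 alone was low, and without it the change was 0.13. The 3 homologues of Isg20 had 0 calls in either knockout, with or without that array.

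Of 59 other TRIM genes 31 had a tested probe. In Casp9 KO 1 of the 31 rose, Trim30d, and 0 fell, with a median log2 change of 0.05, and 1.14% of all probes were called. The Bak/Bax DKO comparison had 1 rise, Trim47, and 0 fell, with a median of 0.15, and 1.82% of all probes were called. The Trim47 probe read 6.34, 6.85 and 6.70 in Bak/Bax DKO against 5.11, 5.34 and 5.77 in WT experiment 2 (log2 change 1.22, adjusted p = 0.0148, and 1.11 without replicate 2, adjusted p = 0.0123; adjusted p = 0.182 with the 6 arrays of experiment 2 alone), and its change in Casp9 KO was -0.22 (adjusted p = 0.901). Trim56, a ubiquitin ligase that takes part in antiviral signalling, had a higher mean in Casp9 KO and a lower one in Bak/Bax DKO than in their wild types. It read 7.90, 7.09 and 8.41 in Casp9 KO against 6.76, 6.82 and 6.59 in WT experiment 1, and 7.27, 7.26 and 7.70 in Bak/Bax DKO against 8.28, 8.76 and 8.47 in WT experiment 2. Neither change was called on its own (adjusted p = 0.13 and 0.0911), and their difference was (2.17, SE 0.40, adjusted p = 0.0287). The Trim56 mean was 6.73 in WT experiment 1 and 8.51 in WT experiment 2, so a gap between the wild types enters that difference. Without Bak/Bax DKO replicate 2 the difference was 2.09 (adjusted p = 0.00959), and the rise of Trim56 in Casp9 KO was then called (adjusted p = 0.0403). Without that array 3 of the 31 were called in Casp9 KO (Trim30d, Trim56 and, at -1.40, Trim10) and 2 in Bak/Bax DKO (Trim47 and, at -0.71, Trim45), beside 4.25% and 2.98% of all probes.

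**Figure D5:**
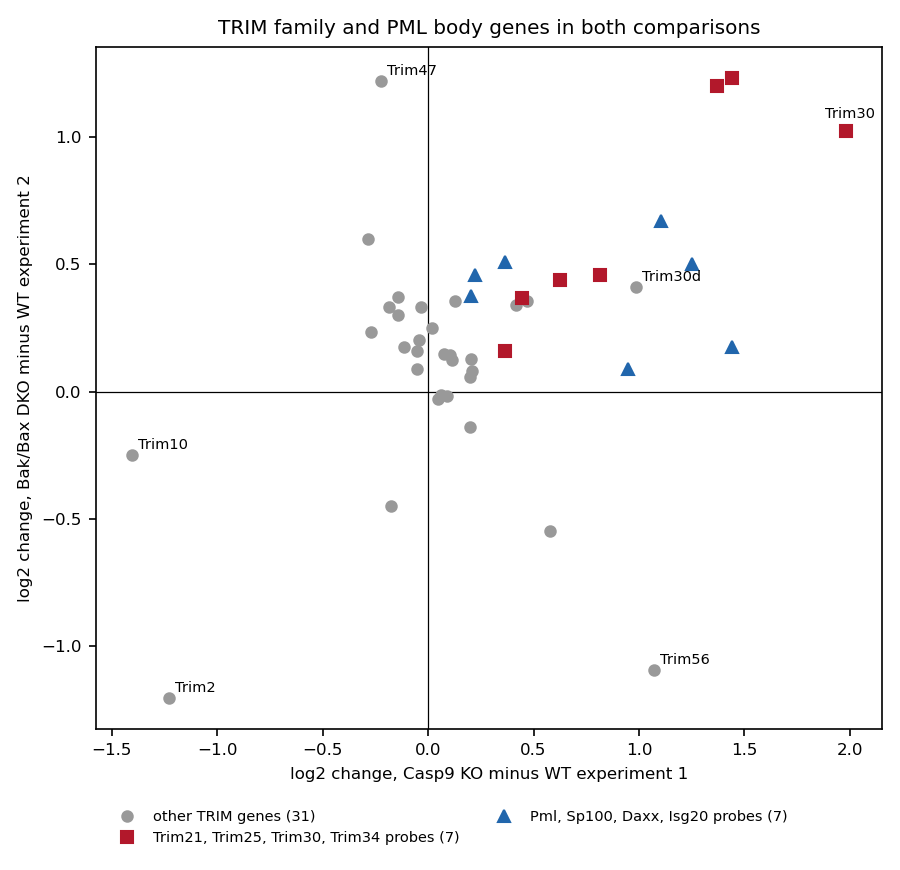
Log2 change in Casp9 KO (horizontal axis) against log2 change in Bak/Bax DKO (vertical axis), each relative to its own wild type, for the 14 tested probes (red squares for TRIM genes, blue triangles for Pml, Sp100, Daxx and Isg20) and 31 other TRIM genes (grey). All 14 coloured points lie above 0 on both axes, Trim56 lies at 1.07 and -1.09, and Trim47 at -0.22 and 1.22.

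The genes whose 12 array values ran nearest to those of a member were found by the root mean square difference of log2 values, each probe centred on its own mean. Gbp2, an interferon-induced GTPase, was nearest to both Trim34 probes (0.16 and 0.18 log2 units). For Trim30 the nearest were Phf11a (0.22), Helz2 (0.23) and Rnf213 (0.24), and for the Sp100 probes ILMN_2846812 and ILMN_2440814 the peptide transporter gene Tap1 (0.23 and 0.20). The nearest to Sp100 ILMN_1216849 was another set, C130026I21Rik, Mcpt8 and Gbp7, of which the first led at 0.18. Rnf135, itself a ubiquitin ligase for RIG-I, was nearest to Pml ILMN_1256356 (0.07), and Traf3 to Daxx (0.11). The members' own SD over the 12 arrays was 0.87 for Trim30, 0.76 for Trim34 ILMN_2504718 and 0.30 for Pml ILMN_1256356, so a small difference is easier to reach for Pml. All pairs share the same arrays and normalisation.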

How the data were processed

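Bead intensity was measured on 12 arrays of 4 groups. The authors deposited a linear intensity per probe with a detection score, and normalized log2 values; the submitters' processing notes name GenomeStudio and limma without a version. The deposited score, a fraction between 0 and 1 headed by the authors as a p-value, rises with intensity on all 12 arrays, so it was read as 1 minus the detection p. No header names the background correction or the scaling; neqc of limma 3.58.1 in R 4.3.3 (offset 16) gave values within 0.0197 of the deposited log2 values. Those deposited log2 values were used.

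Probes with a detection p under 0.05 on at least 3 arrays were kept (18867). A model of 4 group means was fitted to all 12 arrays (8 residual degrees of freedom) with limma's lmFit and eBayes (two-sided), with Benjamini-Hochberg adjustment over all 18867 probes. An adjusted p under 0.05 was called. The probe was the unit. Symbols of 38837 probes were updated through their Entrez ID. The fit was checked on simulated data. The number of arrays limits the precision. The members and gene lists were chosen with earlier results of these data known. The rule for naming genes covered the 9 members, the targeted genes, up to 4 called genes in each direction of 4 lists (PML body partners, homologues of Isg20, partners of the TRIM proteins, other TRIM genes) and the 3 nearest patterns of each probe. Cell type markers were named as lists. Alternatives were another background correction and scaling, other filters, 1 probe per gene, the arrays of 1 experiment, array weights, a replicate block and each array left out. Promoter sequences are from RefSeq (GRCm38.p6).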

Additional observations from a re-analysis of the deposited data

Results flagged for a closer look

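Among the members and the 4 gene lists, the difference between the Casp9 KO effect and the Bak/Bax DKO effect passed the test for 3 genes. Of all probes 1.49% passed it. Some cell type markers passed as well: 2 of 8 monocyte, macrophage and dendritic and 1 of 6 B lymphoid markers with a positive difference. With a negative one, 1 of 6 stem and progenitor and 1 of 5 megakaryocyte markers passed. For Sp100 (probe ILMN_1216849) the difference was 1.27 on the log2 scale (limma adjusted p = 0.0128, and 1.31 without Bak/Bax DKO replicate 2, adjusted p = 0.00302). Its changes were 1.44 in Casp9 KO and 0.17 in Bak/Bax DKO, and its level was 0.87 higher in WT experiment 2 than in WT experiment 1. The other 2 tested Sp100 probes gave differences of 0.75 and 0.44, which did not pass. For Trim56 the difference was 2.17 (adjusted p = 0.0287; 2.09 without that array, adjusted p = 0.00959), with 1.07 in Casp9 KO and -1.09 in Bak/Bax DKO. For Trim47 it was -1.44 (adjusted p = 0.0424; -1.33 without that array, adjusted p = 0.017), with -0.22 in Casp9 KO and 1.22 in Bak/Bax DKO. The Trim56 means were 7.80 in Casp9 KO, 6.73 in WT experiment 1, 7.41 in Bak/Bax DKO and 8.51 in WT experiment 2. Those of Trim47 were 5.92, 6.14, 6.63 and 5.41 in the same order. A gap between the wild types enters each difference, and experiment and beadchip cannot be told apart in that gap. With 3 arrays a group, Dixon's test for an outlying sample was not run.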

How the results depend on the processing

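Of the 7 probes called in Casp9 KO, those of Trim30 and Trim34 and Sp100 ILMN_1216849 kept their calls when each of the 12 arrays was left out in turn. The number of the 14 called ranged from 4 to 8 in Casp9 KO (8 without Casp9 KO replicate 1 or Bak/Bax DKO replicate 2), from 1 (without WT experiment 2 replicate 3) to 4 (without Bak/Bax DKO replicate 1) in Bak/Bax DKO, and from 1 to 2 for the difference of the effects and between the wild types (2 without Bak/Bax DKO replicate 2). All probes called ranged from 111 (without WT experiment 1 replicate 1) to 802 (without Bak/Bax DKO replicate 2) in Casp9 KO and from 133 (without WT experiment 2 replicate 3) to 571 (without Bak/Bax DKO replicate 1) in Bak/Bax DKO. Without Bak/Bax DKO replicate 2 the difference was called for 5.28% of all probes. With 1 probe per gene 4 of 8 genes were called in Casp9 KO, beside 1.48% of the 11642 probes then tested. With only the 6 arrays of an experiment, 640 probes were called in Casp9 KO, 8 of them among the 14. In Bak/Bax DKO 39 were called, 0 of them among the 14. Array weights (0.066 for Bak/Bax DKO replicate 2) gave 9 of the 14 in Casp9 KO beside 1184 of all probes (6.28%), and 3 in Bak/Bax DKO beside 554 (2.94%). For the difference they gave 3 of the 14 beside 1078 of all probes (5.71%). Between the wild types they gave 3 of the 14, where the share of all probes was not taken. The cause of these shifts was not tested.

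The labels do not say that replicate numbers pair samples. Deviations of same-numbered arrays correlated at 0.204, -0.075 and 0.065 for Casp9 KO and WT experiment 1, and at 0.114, 0.047 and 0.060 for Bak/Bax DKO and WT experiment 2. Each Bak/Bax DKO array correlated best with its own number, which is a hint from the data only. In the other pair Casp9 KO replicates 2 and 3 correlated best with other numbers. These were WT experiment 1 replicate 3 (0.137) and replicate 2 (0.109). With the replicate number as a block, 5 of the 14 were called in Casp9 KO beside 131 of all probes (0.694%). In Bak/Bax DKO 1 of the 14 was then called beside 158 of all probes (0.837%). For the difference 0 of the 14 were called beside 102 of all probes (0.541%), and between the wild types 0 of the 14.

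No called probe changed direction. Of uncalled values, Isg20 in Bak/Bax DKO was -0.49 with array weights, -0.30 with the 5 arrays of experiment 2 that exclude Bak/Bax DKO replicate 2 (an alternative added after seeing the data), and -0.30 to 0.42 with 1 array left out, and Trim21 ILMN_3061663 was -0.054 to 0.38. In the difference of the effects, array weights gave 0.016 for Pml ILMN_2732576 and 0.094 for Daxx, and median centring gave -0.039 for Trim21 ILMN_3061663. With 1 array left out that difference was -0.30 to 0.048 for Pml ILMN_2732576, -0.42 to 0.045 for Pml ILMN_1256356, -0.31 to 0.0046 for Daxx, -0.017 to 0.42 for Trim21 ILMN_3061663 and -0.051 to 0.28 for Trim25 ILMN_2927093. Between the wild types, the block gave 0.23 and 0.046 for the 2 Pml probes and 0.15 and 0.13 for the 2 Trim21 probes, median centring gave 0.0052 for Pml ILMN_2732576, and array weights gave 0.10 for Isg20. With 1 array left out that contrast was -0.095 to 0.097 for Pml ILMN_2732576, -0.12 to 0.035 for Pml ILMN_1256356, -0.18 to 0.21 for Isg20 and -0.15 to 0.083 for Trim21 ILMN_3139158. Normalization repeated with neqc gave 7 and 3 of the 14 in Casp9 KO and Bak/Bax DKO, as many as the deposited values.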
